A study of Sus scrofa with 4 samples.

Results

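The genes described here encode the proteins of the cytosolic ribosome. Members were taken by gene symbol, as every array gene name that starts with RPL or RPS and goes on with A, or with a number that may follow a P and end in 1 of the usual paralog letters, leaving out the RPS6K kinases. The rule found 45 genes of 34842 gene names on the array, 21 of the small subunit, 22 of the large subunit and 2 of the stalk. Expression was measured on 4 single-color porcine oligonucleotide arrays, 1 for each of 4 conditions. The study's methods state that the RNA of each group was pooled before labeling, in a passage that names another array type. PIP cells are a porcine intramuscular preadipocyte line, a single line taken from the longissimus thoracis muscle of a Duroc pig and used at passages 26 to 35. Porcine mature adipocytes (pMA) are the same cells held for 4 days after confluence and then kept for 4 days in differentiation medium with 50 ng/ml insulin, 0.25 µM dexamethasone, 2 mM octanoate and 200 µM oleate. The other two conditions are pMA stimulated for 12 h with 100 µM serotonin or with 2.5 µg/ml TNF-α, a proinflammatory cytokine. With 1 array per condition there was no replicate and no test, so no p-value is given, and a value describes these 4 arrays only.

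The ribosome is built from a small 40S and a large 60S subunit, in which ribosomal RNA carries the catalytic centre and many small, mostly basic proteins hold the RNA in shape. Ribosomal protein mRNAs are among the most abundant of any growing cell and carry a terminal oligopyrimidine start, through which mTOR signaling sets their translation, so that a change in ribosome production can occur with little change in these mRNAs. Insulin, which is part of the differentiation medium, is a classical activator of that pathway. Several members also act outside the ribosome, among them RPSA, a laminin-binding protein, RPL5, RPL11 and RPL23, which bind MDM2, and RPL13A, which silences translation of inflammatory mRNAs.

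Each gene is represented by its brightest probe. A level is the log2 signal of that probe after the 75th percentile of the array was subtracted, so a level of 0 is the signal of the probe at that percentile, and a difference of 1 between arrays is a doubling. Because the brightness of a probe also depends on its own sequence, levels were compared between arrays and not between genes. The 45 genes had 208 probes in all, from 1 probe for 12 genes to 18 probes for RPL5. Of their symbols, 44 were current RefSeq symbols for the pig and RPS4 was listed as an older name of RPS4X. RefSeq holds 82 pig symbols of this form, and 37 of these, RPLP0 of the stalk among them, were not analysed here under their own names. The position of the probes in the genome is marked as unmapped in the files, so no coordinates are given.

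The probe sequences matter here because several genes gave different ratios from different probes. The coding probe for RPSA, the member with the widest range over the 4 arrays, the RPL14 probe with the largest difference between PIP and pMA, and the RPS20 probe, of the member with the highest ratio of pMA over PIP, are shown 5′ to 3′ in lower case.
RPSA: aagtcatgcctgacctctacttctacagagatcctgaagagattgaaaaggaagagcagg
RPL14: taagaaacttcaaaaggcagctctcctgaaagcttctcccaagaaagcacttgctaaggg
RPS20: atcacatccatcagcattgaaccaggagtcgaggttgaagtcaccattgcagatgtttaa

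Some probes near the 3′ end of a transcript hold the polyadenylation signal AATAAA, which was searched on the probe strand and is in capitals below. A probe without it can also lie near the 3′ end, and a match alone does not place a probe. Probes were thus sorted by whether they hold the signal, not by position. RPL8, a protein of the large subunit next to the catalytic centre, had both kinds of probe, and RPS19, a small-subunit protein, had only 1 probe. The first RPL8 line is a whole probe of 60 bases and the other two lines are 30 bases of theirs.
RPL8 without the signal: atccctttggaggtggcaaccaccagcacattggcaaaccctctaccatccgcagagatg
RPL8 with the signal: aaagaactaggggctgggggctcAATAAAg
RPS19: cagttctcagaaAATAAAaaactgaaagtt
AATAAA was in 44 of the 208 member probes (21.2%), in 28 of the 45 genes, against 9.60% of all probes on the array. The reverse complement, TTTATT, was in 0 member probes and in 4.17% of all probes. Of the 45 probes that stand for a gene, 16 held AATAAA.

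The probe of RPS16, a protein of the small subunit, lay over another probe of the same gene, shifted by 1 base, from which it differed at 3 bases (T19C, G30A and G50A, written as dimmer probe, position from its 5′ end, brighter probe). The differing bases are in capitals.
RPS16 dimmer probe: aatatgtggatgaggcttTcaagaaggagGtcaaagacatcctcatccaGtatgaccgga
RPS16 brighter probe: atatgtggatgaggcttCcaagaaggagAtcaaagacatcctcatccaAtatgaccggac
The dimmer probe read 4.76 in PIP, 4.28 in pMA, 4.26 after serotonin and 4.38 after TNF-α. The brighter probe read 6.49, 6.15, 6.15 and 6.25 on the same arrays. Their log2 ratios of pMA over PIP, −0.48 and −0.34, lay closer together than their levels.

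The probes of 44 of the 45 genes were above the 75th percentile on all 4 arrays, and all 45 were well above background on each. The exception to the 44 was RPS19, whose level was −1.71 in PIP, −1.77 in pMA, −1.66 after serotonin and −1.88 after TNF-α from the probe printed above. The 208 member probes are 0.475% of the spots, and they took 14.8% of the summed signal in PIP, 14.1% in pMA, 14.4% after serotonin and 13.3% after TNF-α. No member spot was saturated.

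The labels were checked against marker genes. Of 15 adipocyte markers on the array, 12 were well above background in PIP, 12 in pMA, 12 after serotonin and 13 after TNF-α. PLIN1, which coats the lipid droplet, was not well above background on any array, and ADIPOQ, which encodes adiponectin, was so only in PIP. Of the 13 adipocyte markers with a ratio of pMA over PIP 9 (69.2%) were above 0, against 58.0% of all gene names. Among these were CD36, a fatty acid transporter, at 5.17, CIDEC, a droplet protein, at 3.87, and PPARG, the master regulator of adipogenesis, at 1.07. Below 0 were FASN (−0.64), SCD (−0.39), PNPLA2 (−0.28) and ADIPOQ (−0.10 or lower). FABP4, a fatty acid carrier, was well above background in pMA and not in PIP. PLIN2, the droplet protein of immature and non-adipose cells, went from 0.29 in PIP to 3.42 in pMA. The summed signal of the list was 112 times the 75th percentile in PIP, 94.9 in pMA, 105 after serotonin and 99.6 after TNF-α. Most of that sum on every array was SCD and FASN. The 10 muscle markers had a summed signal of 644, 659 and 612 times the 75th percentile in PIP, pMA and TNF-α, and of 177 times after serotonin, with 6 of them well above background in PIP and 7 on each other array. Nearly all of that sum was ACTA1, skeletal muscle actin, and MYOD1 was not well above background on any array. The 10 preadipocyte or fibroblast markers had a summed signal of 876 in PIP and 951 in pMA, and most of it on every array was COL1A2 and VIM. Of the 9 with a ratio of pMA over PIP 6 (66.7%) were above 0, against 58.0% of all gene names. Their median was 0.11, against 0.12.

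The first comparison asked what changes as PIP cells become pMA. The confluence of the PIP cells is not stated, so differentiation cannot be told apart from confluence and time in culture. The ribosomal protein genes differed little. None of the 45 was at least 1.5-fold higher in pMA, against 23.4% of the 18634 gene names with a ratio, and 2 (4.44%) were at least 1.5-fold lower, against 10.6%. No member was 2-fold apart in either direction, against 13.5% of all gene names. In RNA of whole cultures, fewer cells of a type and less RNA per cell cannot be told apart.

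RPL14, a protein of the large subunit, had the lowest ratio. Its level was 8.30 in PIP, 7.53 in pMA, 7.52 after serotonin and 7.48 after TNF-α. PIP was alone at the high level and the 3 pMA arrays lay close together. The log2 ratio of pMA over PIP was −0.76, and the other probes of the gene gave −1.0 to −0.27.

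RPSA, the laminin-binding protein of the small subunit, came next. It read 8.25 in PIP, 7.62 in pMA, 7.24 after serotonin and 7.59 after TNF-α. The serotonin array was the lowest and PIP the highest, 2.02-fold apart, which was the widest range of any member over the 4 arrays. From PIP to pMA the log2 ratio was −0.64, and its 6 probes gave −0.76 to −0.07. In the RefSeq annotation RPSA and RPL14 lie on the same chromosome with 7 genes between their starts, of which ENTPD3 (−1.47) and MYRIP (0.97) had a ratio here.

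Below these came RPL3, a core protein of the peptidyl transferase centre, at −0.44 from its only probe, and RPS3A, a small-subunit protein, at −0.36.

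At the other end stood RPS20, a protein of the head of the small subunit. The RPS20 level was 9.21 in PIP, 9.57 in pMA, 9.37 after serotonin and 9.34 after TNF-α. Both stimulated arrays lay between PIP and pMA. The log2 ratio of pMA over PIP was 0.36, and all 7 probes were above 0, from 0.12 to 0.61. RPS27A, made as a fusion with ubiquitin, followed at 0.30 from its single probe, RPS23 of the decoding centre at 0.29, RPS29 at 0.22 and RPL19 at 0.19.

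**Figure D1:**
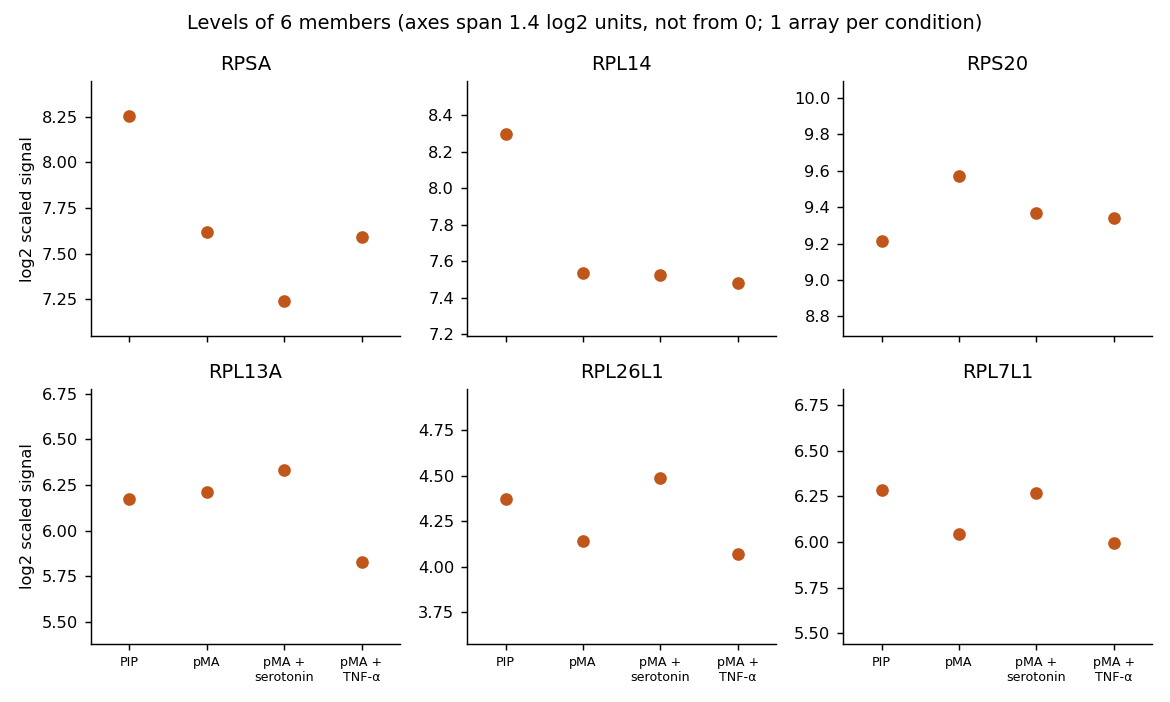
Log2 signal over the 75th percentile of the array (vertical axes, each spanning 1.4 log2 units) for 6 ribosomal protein genes on the 4 arrays; each point is 1 array. RPSA and RPL14 were highest in PIP, RPL13A was lowest after TNF-α at 5.83, and RPL26L1 and RPL7L1 were higher after serotonin than in unstimulated pMA.

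Over all 45 genes the median log2 ratio of pMA over PIP was −0.05, with 26 below 0 (57.8%, against 42.0% of all gene names), while the median of all gene names was 0.12; scaled to the spike-in spots the median of the members became 0.33 with 3 below 0, and scaled to the median of each array it became −0.40 with 44 below 0 and 12 at least 1.5-fold lower. On the spike-in scale RPL14 (−0.38) and RPSA (−0.26) were no longer 1.5-fold lower and 4 members were at least 1.5-fold higher. Whether the whole set was higher or lower thus rested on the scaling. Relative to the median of all gene names the members stood at −0.17 here, −0.19 on the spike-in scale and −0.18 on the median scale, −0.31 with the median over all probes and −0.47 without the filter on dim probes. Below the median of all gene names lay 33 of the 45 here, 37 on the spike-in scale and 35 on the median scale. Shares of all gene names at 1.5-fold were not taken on the other scales. The 1432 other gene names with probes at least as bright as that of RPL26L1 had a median of 0.02, nearer to the members than the 0.12 of all gene names. Of these 1432, 690 were below 0. The bright spike-in spots themselves stood 0.38 lower in pMA than in PIP on the 75th percentile scale. The small-subunit genes had a median of −0.06 (8 of 21 above 0) and the large-subunit genes with the stalk −0.04 (11 of 24 above 0). Both stalk genes, which recruit the elongation factors, were above 0 on this scale, RPLP1 at 0.13 and RPLP2 at 0.12. RPS28, a small-subunit protein near the mRNA exit, read 9.17 in PIP, 9.18 in pMA, 9.03 after serotonin and 9.08 after TNF-α.

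**Figure D2:**
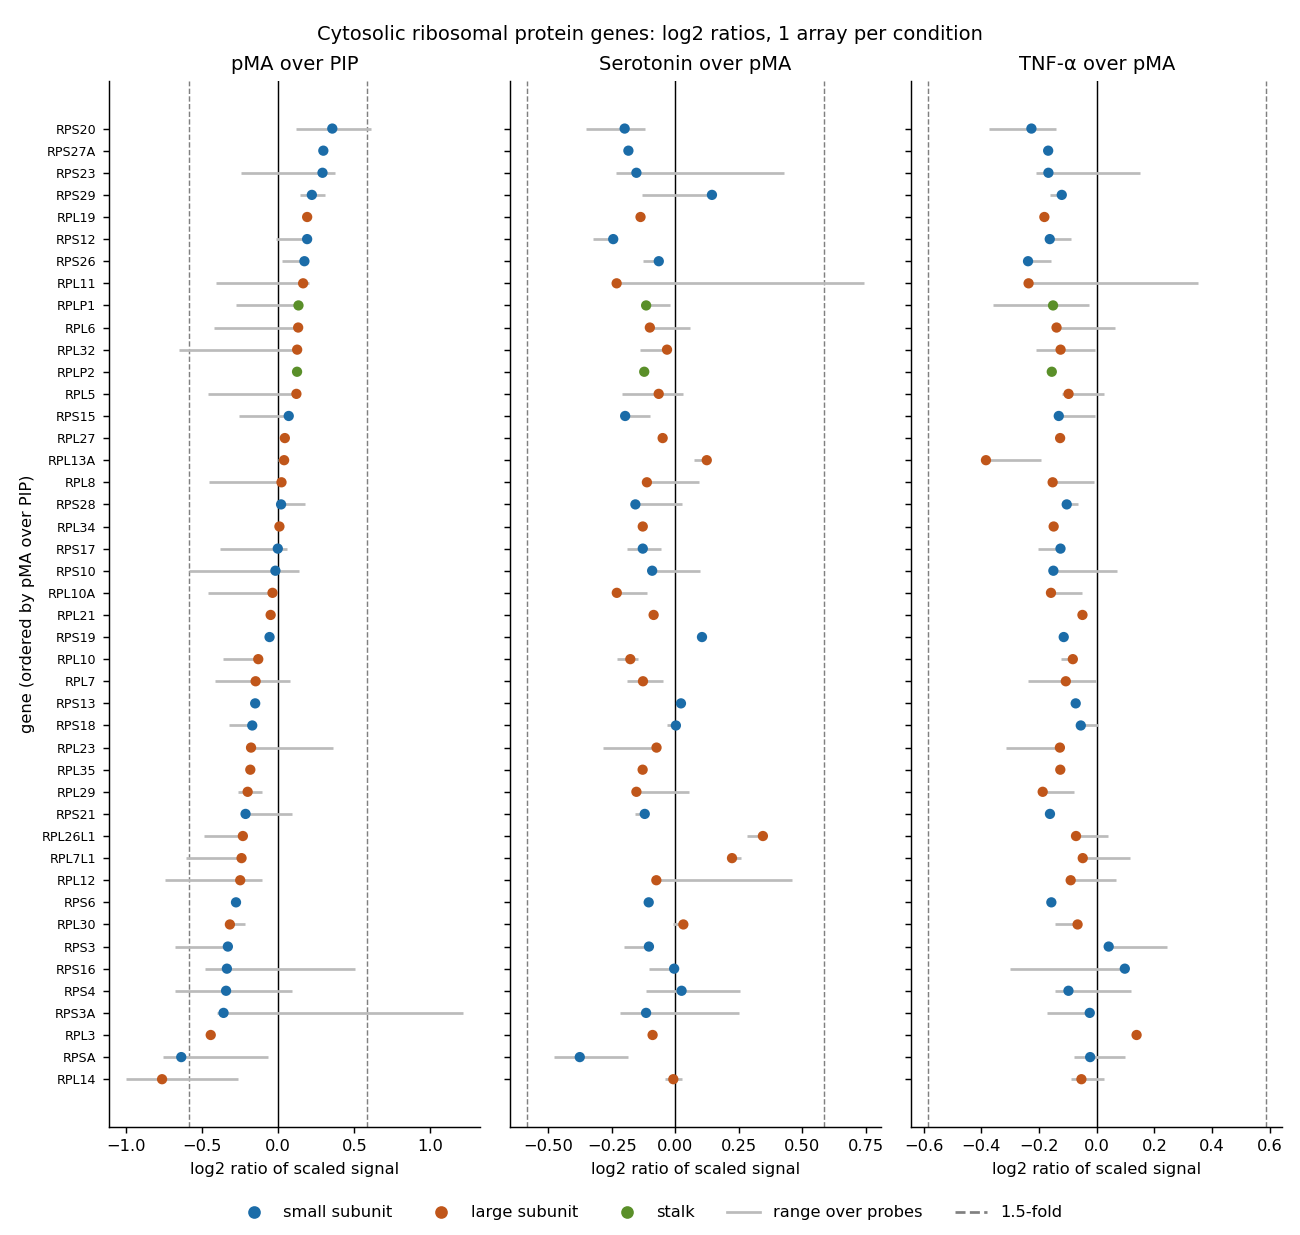
Log2 ratio of the brightest probe (horizontal axis, points) for 44 of the 45 genes (vertical axis) in 3 comparisons, with grey bars from the lowest to the highest ratio over the probes of a gene well above background and dashed lines at 1.5-fold. RPL14 and RPSA are past the 1.5-fold line in pMA over PIP, and no point is past it after serotonin or TNF-α.

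Different probes of a gene did not give the same ratio of pMA over PIP. Over the 28 genes with at least 3 probes brighter than the 75th percentile, the SD between the probes of a gene was 0.22, near the SD of 0.26 between the medians of the genes. RPL8 was such a gene. Its 3 probes with AATAAA gave −0.07, 0.02 and 0.04, and its 4 probes without it gave −0.45 to −0.40, with no overlap. RPL12, which binds beside the stalk, gave −0.25 from a probe with the signal and −0.74 from a bright probe without it.

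RPL5 and RPL6 showed the same kind of spread. The brightest RPL5 probe gave 0.12 and the lowest of its 18 probes −0.46. For RPL6 the brightest probe gave 0.13 and the other 12 gave −0.42 to −0.10. Among the 20 members with bright probes of both kinds, the median with AATAAA was above the median without it in 14 (70.0%), by 0.15 at the median gene. Of 345 other gene names with both kinds, 66.1% showed this order, by 0.12 at the median. After serotonin the probes with the signal were the higher in 3 of the 20 members and in 54.2% of the other gene names, and after TNF-α in 4 of 20 and in 25.8%. The part of probe position in the ratios was not tested. With the median over all probes in place of the brightest probe, the median of the 45 genes was −0.18, and only RPL14 was at least 1.5-fold apart.

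**Figure D3:**
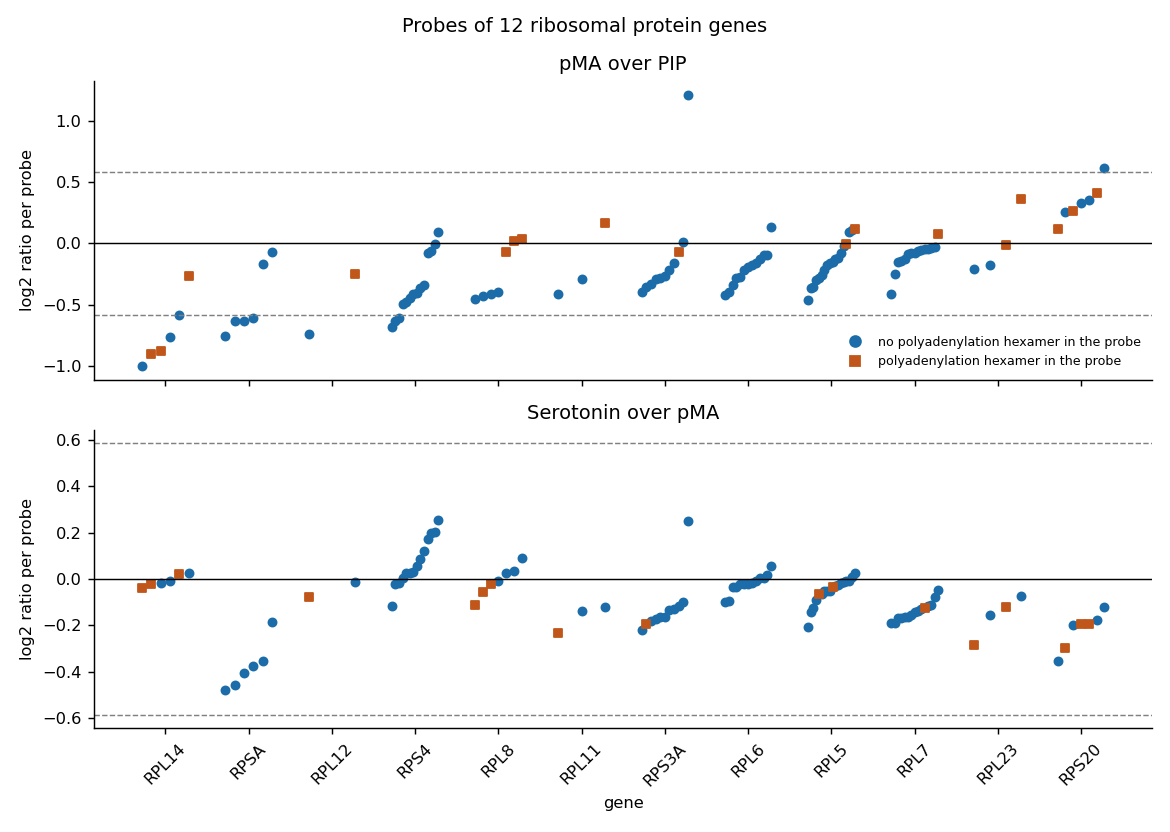
Log2 ratio (vertical axes) of every probe above the 75th percentile for 12 ribosomal protein genes, with pMA over PIP above and serotonin over pMA below; orange squares are probes that hold the polyadenylation signal and blue circles probes that do not, and dashed lines mark 1.5-fold. In pMA over PIP the squares of RPL8 and RPL12 lie above the circles of the same gene, and after serotonin all RPSA probes lie below 0.

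The second comparison asked what serotonin does to pMA within 12 h. None of the 45 genes was at least 1.5-fold higher (8.33% of 19087 gene names) or 1.5-fold lower (12.7%), and none was 2-fold apart (6.83%). The median log2 ratio was −0.11 against 0.01 for all gene names, and 36 of the 45 (80.0%) were below 0 against 48.9%; on the spike-in scale the median was 0.00 with 22 below 0, and after quantile normalization 0.08 with 4 below 0. Relative to the median of all gene names the members stood at −0.12 here and −0.11 on the spike-in scale, with 37 below that median on both. They stood at 0.04 after quantile normalization and at 0.02 without the filter on dim probes. The 1432 other bright gene names had a median of −0.09, close to that of the members, and 867 of them were below 0. The median was −0.12 for the small subunit and −0.10 for the large subunit with the stalk.

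RPSA was the lowest, at −0.38 against unstimulated pMA, and its 6 probes gave −0.48 to −0.19. RPS12, a small-subunit protein of the head, followed at −0.25, with its 6 probes from −0.33 to −0.25. RPL10A of the L1 stalk and RPL11 both stood at −0.23 and RPS20 at −0.20. The place of RPL11 rests on its brightest probe, as its other bright probes gave −0.14 and −0.12 and its dim ones 0.46 and 0.74. Beside these values, the summed signal of the muscle markers was 659 in pMA and 177 after serotonin. That of the 10 preadipocyte or fibroblast markers was 951 in pMA and 634 after serotonin. Of the 9 with a ratio 8 were below 0 and 6 were at least 1.5-fold lower, against 48.9% and 12.7% of all gene names. Their median was −0.61. The part of these markers in the ribosomal protein values was not tested.

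The paralog genes among the members stood at the other end. RPL26L1, a copy of the RPL26 protein encoded by its own gene, read 4.37 in PIP, 4.14 in pMA, 4.49 after serotonin and 4.07 after TNF-α. The serotonin array was the highest and the TNF-α array the lowest. Its log2 ratio of serotonin over pMA was 0.34, the highest of the 45, and its 4 probes gave 0.28 to 0.35. RPL7L1 is related to RPL7 and works in the assembly of the large subunit. It read 6.29, 6.05, 6.27 and 6.00 on the same arrays. Its ratio was 0.22, with 3 probes from 0.21 to 0.26, while the 15 probes of RPL7 gave −0.19 to −0.05 and did not overlap with them. RPL26 was not analysed here under its own name. In the 12 settings that gave a value, the ratios of serotonin over pMA stayed between 0.33 and 0.45 for RPL26L1 and between 0.21 and 0.38 for RPL7L1. Several of these settings keep the same probe and scaling, so they could not move these values.

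RPS29 (0.14), RPL13A (0.12) and RPS19 (0.10) completed the upper end. For RPS29, a zinc-binding protein, the other two bright probes gave −0.08 and −0.13, so its place there rests on the brightest probe.

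The third comparison took the cytokine in place of serotonin, against the same unstimulated pMA array. No member was at least 1.5-fold higher (6.89% of 19779 gene names), 1.5-fold lower (5.24%) or 2-fold apart (3.55%). The median log2 ratio was −0.13 against 0.01 for all gene names, and 42 of the 45 (93.3%) were below 0 against 49.2%; the median was −0.06 with 34 below 0 on the spike-in scale and −0.06 with 37 below 0 after quantile normalization. Relative to the median of all gene names the members stood at −0.13 here and on the spike-in scale, and at −0.03 after quantile normalization. The 1432 other bright gene names had a median of −0.06, and 886 of them were below 0. Of the 9 preadipocyte or fibroblast markers with a ratio 7 were below 0, and their summed signal was 951 in pMA and 791 after TNF-α; their part in these values was not tested. Small-subunit genes had a median of −0.12 and the large-subunit genes with the stalk −0.13.

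RPL13A, the large-subunit protein that in human monocytes is released to block translation of inflammatory mRNAs, was the lowest. Its level was 6.17 in PIP, 6.21 in pMA, 6.33 after serotonin and 5.83 after TNF-α. The other 3 arrays lay between 6.17 and 6.33 and the TNF-α array lay below them. The log2 ratio of TNF-α over pMA was −0.38, and the second probe of the gene gave −0.19. RPL11 and RPS26 both followed at −0.24, then RPS20 at −0.23 and RPL29, a small basic protein of the large subunit, at −0.19. The other bright probes of RPL11 gave −0.16 and −0.10, and its dim ones 0.35 and 0.04.

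Only RPL3 (0.14), RPS16 (0.10) and RPS3 (0.04) were above 0 at the 75th percentile scaling, where RPS3 is a small-subunit protein that also takes part in DNA repair. Both overlapping RPS16 probes printed above gave 0.10. RPSA and RPS3A, both at −0.02, came next. In the 12 settings that gave a value, RPL3 stayed between 0.05 and 0.21. Those that change only the choice or filter of probes could not move its single probe.

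**Figure D4:**
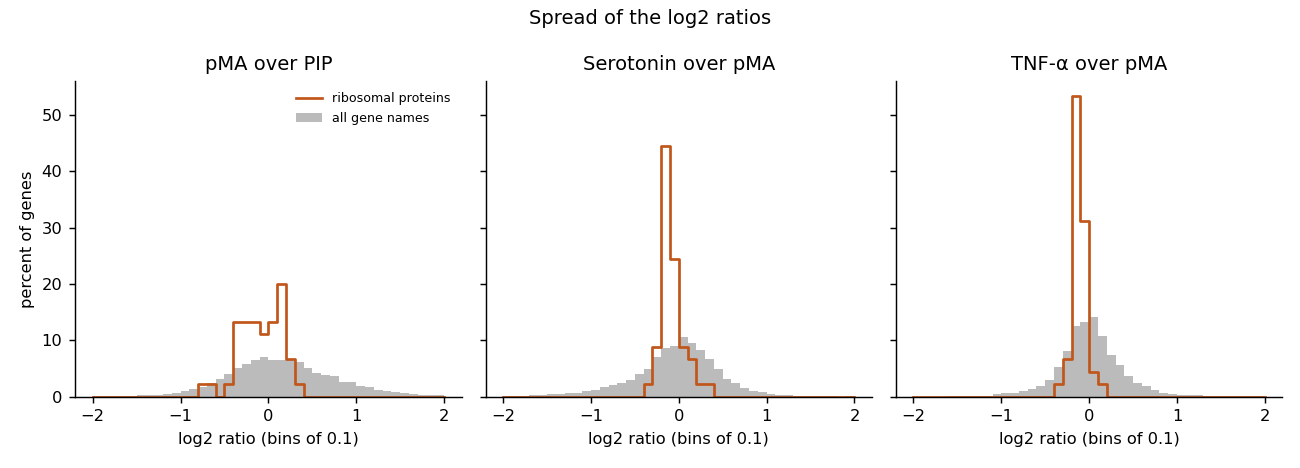
Percent of genes (vertical axis) in bins of 0.1 of the log2 ratio (horizontal axis) for all gene names (grey bars) and for the 45 ribosomal protein genes (orange line) in 3 comparisons; values beyond 2 on either side are not drawn. The members have an interquartile range of 0.36, 0.12 and 0.09 against 0.80, 0.56 and 0.39 for all gene names.

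The ratios of the members lay closer together than those of all gene names. Their interquartile range was 0.36 for pMA over PIP, 0.12 for serotonin and 0.09 for TNF-α, against 0.80, 0.56 and 0.39 over all gene names and 0.56, 0.42 and 0.24 over the 1432 other bright gene names. Other translation genes were about as close in some comparisons. The mitochondrial ribosomal protein genes had 0.40, 0.35 and 0.10, and the translation initiation genes had 0.47, 0.12 and 0.28. Within 0.2 of their own median lay 26 members for pMA over PIP, 39 after serotonin and 42 after TNF-α. The shares of all gene names within 0.2 of theirs were 26.7%, 37.8% and 50.7%. Bright probes spotted more than once on an array gave a technical SD of 0.07 to 0.09 for these ratios, from 3 to 6 such probes per array. Over all repeated probes well above background, dimmer ones included, it was 0.21 to 0.26. For TNF-α the SD between the genes, 0.07 over the medians of the 28 genes with at least 3 bright probes, was close to the SD of 0.06 between the probes of a gene. For serotonin it was 0.13 between genes and 0.07 between probes.

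The direct comparison of the stimulated arrays gave a median log2 ratio of serotonin over TNF-α of 0.03 against −0.04 for all gene names, with 16 members (35.6%) below 0 against 53.8% and none 2-fold apart against 6.9%; 11 members were below 0 on the spike-in scale and 4 when each array was scaled to its median. Relative to the median of all gene names the members stood at 0.07 on each of these scales, with 11 below that median. RPL13A (0.51), RPL26L1 (0.42), RPL7L1 (0.27), RPS29 (0.26) and RPS19 (0.22) were the highest. The second RPL13A probe gave 0.27. RPSA (−0.35), RPL3 (−0.23), RPS3 (−0.15) and RPS16 (−0.10) were among the lowest.

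Other genes of translation were set beside the members, counted by the 1.5-fold size used above. Among genes for ribosomal proteins without an RPL or RPS symbol of this form, FAU encodes a ubiquitin-like protein fused to a ribosomal protein, GNB2L1 is the scaffold RACK1, and RPL36AL is a paralog. None of these 3 was 1.5-fold apart in any comparison. After serotonin they ranged from GNB2L1 at −0.16 to RPL36AL at 0.06 and after TNF-α from RPL36AL at −0.18 to GNB2L1 at −0.04. From PIP to pMA GNB2L1 stood at −0.12 and FAU and RPL36AL both at 0.05. The elongation factors EEF1A1, which brings aminoacyl-tRNA to the ribosome, and EEF1G stood at 0.01 and −0.39 from PIP to pMA, at −0.18 and −0.17 after serotonin and both at −0.08 after TNF-α.

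Ribosome biogenesis genes, which act in the nucleolus to make and assemble the subunits, behaved differently in these values. Of the 69 listed genes 24 were on the array, all with a ratio. After serotonin 22 of the 24 were above 0, 6 were at least 1.5-fold higher and none was 1.5-fold lower. The shares of all gene names were 51.1%, 8.33% and 12.7%. The median of the list was 0.46, and over the scalings and other planned settings it stayed between 0.42 and 0.57. Above the median of the ribosomal protein genes, −0.11, lay 23 of the 24, and so did the median of all gene names, 0.01. MYC, the transcription factor that drives many of these genes, read 2.74 in PIP, 1.09 in pMA, 2.33 after serotonin and 1.55 after TNF-α. Its log2 ratios were −1.65, 1.24 and 0.46 in the 3 comparisons. UTP6, of the small-subunit processome, followed at 1.00 after serotonin, from a dim probe that read −2.48 in pMA and −1.49 after serotonin. NOP58 (−0.19), of the box C/D snoRNPs, and GAR1 (−0.01), of the box H/ACA snoRNPs, were the lowest there.

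In pMA over PIP the same list had a median of −0.32. In it 1 gene was at least 1.5-fold higher, POLR1E of RNA polymerase I at 0.66, against 23.4% of all gene names. MYC, DKC1 (−0.74) and NOP58 (−0.67), 3 of the 24, were at least 1.5-fold lower, against 10.6%. On the spike-in scale the median was 0.05, and on the array-median scale −0.67 with 2 of 24 above 0. After POLR1E the next highest was WDR12 at 0.37. After TNF-α the median was 0.02 and no gene of the list was 1.5-fold apart. EIF6 (0.40), which keeps the subunits apart, followed MYC at the top, and POLR1E and WDR12, both at −0.35, were the lowest.

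**Figure D5:**
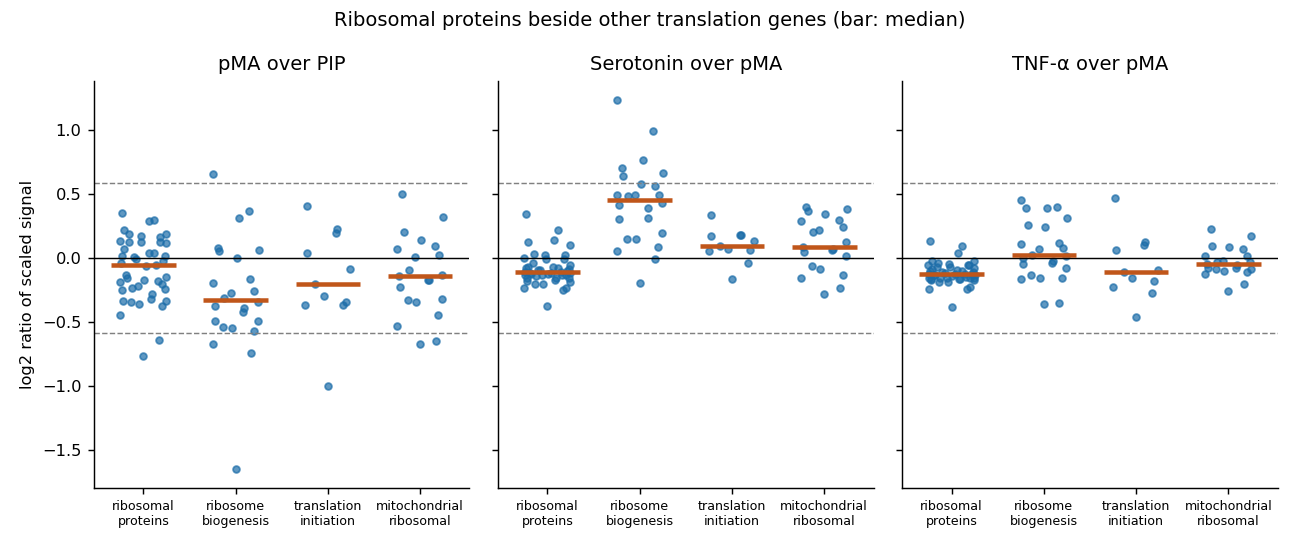
Log2 ratio (vertical axis) of each measured gene of 4 lists (horizontal axis, points), with the median of a list as an orange bar and dashed lines at 1.5-fold, in 3 comparisons. After serotonin the ribosome biogenesis genes have a median of 0.46, above the ribosomal protein genes at −0.11.

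Translation initiation genes had 11 of 37 on the array and a median of −0.20 from PIP to pMA, 0.10 after serotonin and −0.11 after TNF-α. The first of these was 0.18 with 10 of 11 above 0 on the spike-in scale and −0.55 on the array-median scale, and that after serotonin was 0.21 on the spike-in scale. EIF4A1, the helicase of the cap-binding complex, was the only one of the 11 at least 1.5-fold apart, at −1.0 from PIP to pMA. Of all gene names 10.6% were at least 1.5-fold lower there. EIF2S1 and PABPC1 were next lowest at −0.36, and EIF5B (0.41) and EIF1AX (0.23) were highest. After serotonin EIF4A1 (0.34) and EIF4G1 (0.19) were the highest and EIF1AX (−0.16) and EIF5B (−0.03) the lowest. EIF4G1 (0.47) and EIF4E2 (0.12) led after TNF-α, and EIF4A2 (−0.46) and EIF1AX (−0.27) were lowest.

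Mitochondrial ribosomal protein genes, of a separate ribosome that translates the mitochondrial genome, numbered 21, with 2 at least 1.5-fold lower from PIP to pMA (MRPL58 at −0.67 and MRPL40 at −0.65), a share close to the 10.6% of all gene names, and none higher. The highest there were MRPS18B (0.50) and MRPL17 (0.33). The MRPL40 probe was dim, at −3.19 in PIP and −3.83 in pMA. The medians of the 21 genes were −0.14, 0.09 and −0.04 in the 3 comparisons. After serotonin 17 of the 21 were above the median of the cytosolic genes, but 12 of 21 after quantile normalization. At the 75th percentile scaling that cytosolic median, −0.11, lay below the 0.01 of all gene names. Above 0 were 15 of the 21 (71.4%), against 51.1% of all gene names. From PIP to pMA the median was 0.24 with 17 above 0 on the spike-in scale and −0.49 on the array-median scale. MRPL16 (0.40) and MRPS31 (0.39) were the highest after serotonin and MRPL40 (−0.28) and MRPL15 (−0.23) the lowest. After TNF-α the range ran from MRPL52 (−0.25) and MRPL46 (−0.20) to MRPL58 (0.17) and MRPS11 (0.23).

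Of 25 listed genes of mTOR and stress control, 13 were on the array. From PIP to pMA EIF2AK3 (0.77), a kinase that responds to endoplasmic reticulum stress, and PDCD4 (0.62), which binds the EIF4A helicase, were at least 1.5-fold higher, and SESN2 (−0.76), an mTORC1 inhibitor, was 1.5-fold lower, followed by ATF4 at −0.54. EIF4EBP1 (−0.73), a repressor of cap binding, was the only one 1.5-fold apart after serotonin. There SESN2 was next lowest at −0.41, and PDCD4 (0.45) and TSC1 (0.39) were highest. After TNF-α TSC1 (0.74), another mTORC1 inhibitor, was at least 1.5-fold higher and PDCD4 (−0.59) 1.5-fold lower, with EEF2K (0.41) and SESN2 (−0.40) next on either side. MTOR itself stood at −0.02, 0.11 and −0.12. Of the 13 genes 2 were thus 1.5-fold higher and 1 lower from PIP to pMA, against 23.4% and 10.6% of all gene names. After serotonin none was higher and 1 was lower, against 8.33% and 12.7%. After TNF-α 1 was higher and 1 lower, against 6.89% and 5.24%. The probes of EIF2AK3 (−2.90 in PIP and −2.12 in pMA), TSC1 and EIF4EBP1 lay below the 75th percentile on every array.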

How the data were processed

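Signals came from Agilent porcine arrays, read with Agilent Feature Extraction 10.7.3.1. The deposited intensity per spot is background-subtracted and dye-normalized by that program; the authors also deposited intensity values divided by 1 constant per array, used as an alternative. The study's methods name this array and program, but elsewhere also another array type and scanner; the files were followed. Non-control spots were scaled to the 75th percentile of each array and put on the log2 scale, outlier spots were left out, and a ratio needed a probe well above background on both arrays or was set at its bound. On each array 43803 spots of 43603 probes entered, 56.5% to 66.0% of the probes well above background. There was 1 array per condition, so precision rests on that number, and the shared pMA array enters both stimulation comparisons. The members and lists were chosen with earlier results of these data known. Named were, per comparison, the 5 highest and 5 lowest members, any member 2-fold apart, the 3 brightest and 3 dimmest, RPSA, the stalk genes, paralogs with parent genes, and the 2 highest and 2 lowest of other lists; genes with a like pattern were not sought, because a correlation needs at least 6 arrays. Some genes that these rules name are not reported here. The code was tested on simulated data. Alternatives were median, quantile and spike-in scaling, normexp (limma 3.58.1, offset 50), the median over probes, other filters on dim probes and the deposited matrix. Python 3.11.15, numpy 2.4.6 and pandas 2.3.3 were used.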

Additional observations from a re-analysis of the deposited data

How the results depend on the processing

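No paired analysis was possible because each condition has 1 array, and for the same reason no array could be left out; no spot was saturated, so the unsaturated choice of probe changed nothing. For pMA over PIP the median of the 45 genes was −0.05; it was −0.40 with 44 below 0, 12 at least 1.5-fold and 1 (RPL14) at least 2-fold apart when scaled to the array median, 0.33 with 3 below 0 and 4 at least 1.5-fold apart on the spike-in scale, −0.15 after quantile normalization, and −0.18 with 1 at least 1.5-fold apart from the median over probes. For serotonin over pMA quantile normalization gave 0.081 with 4 below 0 and the spike-in scale 0.003 with 22 below 0. Relative to the median of all gene names these were 0.04 and −0.11. For serotonin over TNF-α the median scale gave 0.15, 4 below 0 and 1 (RPL13A) at least 1.5-fold apart, and quantile normalization 0.16, 4 below 0 and 1 (RPL13A) at least 1.5-fold apart. Choosing the brightest probe without AATAAA, added after the data were seen, left 38 genes and gave −0.18 for pMA over PIP. Choosing the brightest with AATAAA, also added, left 28 genes, with 14, 22, 27 and 9 below 0 in the 4 comparisons in the order above and 1 at least 1.5-fold apart from PIP to pMA; fewer genes enter these counts. Counts under these settings have no share of all gene names beside them, and the median of all gene names shifts with the scaling too. The cause of the scaling differences was not tested. RPSA ranged from −0.99 to −0.26 and RPL14 from −1.11 to −0.38 for pMA over PIP over all settings, without a change of sign. Leaving out the dim RPS19 and the remaining settings kept the other medians and counts within the technical SD of a ratio or 1.5 times.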

Other observations

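The array holds further probes that its annotation describes as a cytosolic ribosomal protein but lists outside the symbols used here, nearly all under a contig, transcript or locus name, among them RPL4, RPL18, RPL23A, RPL31, RPL36 and RPS24. RPL36AL, described above, is also counted here. They were set aside by the symbol rule and were chosen from their descriptions after values had been seen. Of 58 such probes 37, of 25 names, were brighter than the 75th percentile. Their median log2 ratio was −0.02 for pMA over PIP, −0.13 for serotonin over pMA and −0.11 for TNF-α over pMA. Below 0 were 23, 30 and 33 of the 37, against 42.0%, 48.9% and 49.2% of all gene names. Several target the same transcript as a member or as each other, so they are not separate genes. From PIP to pMA 3 of the 37 probes were at least 1.5-fold lower, against 10.6% of all gene names, and none was 1.5-fold higher, against 23.4%. The 3 were described as RPS18 (−0.94), RPS4 of the X isoform (−0.78) and RPL7A (−0.75). Another bright probe described as RPS18 gave 0.22, and another described as RPL7A gave −0.41. The brightest member probes of RPS18 and RPS4 gave −0.17 and −0.34. Over all their member probes, RPS18 ranged from −0.32 to −0.17 and RPS4, with 14 probes, from −0.68 to 0.09.

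Of the 208 member probes 10 lay below the 75th percentile although other probes of their gene, except for RPS19, were bright.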
